A study of Mus musculus with 7 samples.

Results

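The genes described are those that encode splicing factors, chosen by symbol alone: every row whose gene symbol begins with Sfrs, Srsf, Snrp, Hnrnp, Hnrp, Sf3a, Sf3b or Prpf. This rule found 95 of the 36733 rows, each row being 1 transcription start site (TSS), and these 95 rows belong to 65 of 17689 genes with a symbol. By role they are 17 genes of the SR protein family (named Sfrs in the annotation used, now mostly Srsf), 18 hnRNP genes, 7 genes for SF3a and SF3b subunits, 11 genes for small nuclear ribonucleoprotein (snRNP) proteins and 12 Prpf genes. All 65 symbols fit the label, although several Sfrs symbols, such as Sfrs11, Sfrs16 and Sfrs2ip, name SR-related proteins rather than classical SR proteins. Sf3a1 and Prpf31 were not among the rows and were not analysed here.

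Splicing removes introns from pre-mRNA in the spliceosome, which assembles on each intron from snRNPs, each a small nuclear RNA carrying a ring of Sm proteins and further proteins of its own. SR proteins and hnRNPs bind the pre-mRNA itself and often act against each other in the choice of splice sites, while the SF3a and SF3b complexes belong to the U2 snRNP that marks the branch point and the Prpf proteins serve the assembly and catalytic rearrangement of the spliceosome. Genes of this kind are active in nearly all dividing cells, and most have CpG-rich promoters.

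The samples were 7 ChIP-seq libraries from mouse E14 embryonic stem cells (ESCs), each condition having 1 library, so no replicate error could be estimated. In Tip60-H3F and Hdac6-H3F ESCs, a histidine and Flag tag (H3F) was added to the endogenous gene, and Flag ChIP was done from Tip60-H3F cells upon GFP KD (the control knockdown) or Hdac6 KD, from Hdac6-H3F cells upon GFP KD or Tip60 KD, and from untagged E14 cells with no knockdown named. Endogenous p400 was precipitated with its own antibody upon GFP KD or Hdac6 KD, and all knockdowns were lentiviral, with cells taken 72 hr after infection. Tip60 is the acetyltransferase and p400 the ATPase of one chromatin remodeling complex, and Hdac6 is a deacetylase that interacts with it. The labels of the Hdac6 ChIP library of the second knockdown disagree, its title giving Tip60 KD and its genotype Hdac6 KD; it is called Tip60 KD here, after the title. RNA was not measured in these samples, so the extent of each knockdown is not analysed here, and whether each tagged line is 1 clone is not given in the sources used here.

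The signal was read coverage in ppm (coverage relative to library size) around each TSS, and it was made up of whole reads in every file, from which the reads behind the normalization were recovered, from about 9226750 for Hdac6 ChIP upon Tip60 KD to 31375500 for p400 ChIP upon Hdac6 KD. Values below are reads in the window of 500 bp on either side of the TSS, and folds are between signals scaled to library size, before rounding to whole reads. A row was called lower or higher in 2 ways: by a fold of at least 1.5, and by an exact conditional binomial test of the reads (two-sided, Benjamini-Hochberg adjusted p under 0.05 over all rows with at least 10 reads in both libraries together), here the exact read test, which compares 2 libraries and covers counting error only. Across the most upstream rows of all 17689 genes the mean promoter signal was 1.70 times the flank signal in the p400 library upon GFP KD and 1.17 times upon Hdac6 KD, and 1.28, 1.13 and 1.03 times in the Tip60 GFP KD, Tip60 Hdac6 KD and untagged libraries.

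Splicing factor promoters were rich in GC and CpG. Over the most upstream row of each gene, the median GC content within 500 bp of the TSS was 58.6% against 56.0% for all genes, and the median ratio of observed to expected CpG was 0.841 against 0.5999. Median GC was 65.2% for hnRNP genes and 62.1% for SR protein genes, but 55.2% for snRNP genes. Of the 65 genes, 19 (29.2%) had a TSS on the opposite strand within 1 kb, against 12.6% of all 17689 genes. These include Hnrnpa1 with Cbx5, Hnrnpa2b1 with Cbx3, Sfrs2 with Mfsd11, Sf3b3 with Cog4 and Hnrnpk with Rmi1, and at such promoters the reads of both genes cannot be told apart.

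As examples of sequence, the 250 bases upstream of the TSS at the most upstream row are given for 5 genes in the mm9 (NCBIM37) genome, 5′ to 3′ on the gene's strand. Sfrs6 and Hnrnpa2b1 had among the deepest losses of p400 upon Hdac6 KD, Hnrnpab had the smallest p for a loss of Tip60, Snrpa did not pass the test in p400, and Snrpn had the lowest p400 signal. By the GENCODE annotation of the same genome, the rows used for Snrpn and Hnrnpab lie outside a gene on their strand. That of Snrpn is 309958 bp upstream of the Snrpn row at an annotated start, so it may not mark the promoter. Capitals mark matches on either strand to 8 motifs searched: the letters TATAAA for the TATA box, those of the CCAAT box, and GGGCGG (GC box), CCGGAAG (ETS motif), AAGATGGCG (YY1 motif), TGACGTCA (cyclic AMP response element), CACGTG (E-box) and the NRF1 motif.
Sfrs6, chr2:162757031-162757280, + strand: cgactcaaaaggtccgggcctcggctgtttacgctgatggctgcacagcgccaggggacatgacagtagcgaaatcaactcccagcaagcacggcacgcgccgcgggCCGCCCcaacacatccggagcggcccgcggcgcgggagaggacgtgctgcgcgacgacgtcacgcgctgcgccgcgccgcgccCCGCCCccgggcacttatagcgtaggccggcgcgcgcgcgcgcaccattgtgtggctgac
Hnrnpa2b1, chr6:51419894-51420143, - strand: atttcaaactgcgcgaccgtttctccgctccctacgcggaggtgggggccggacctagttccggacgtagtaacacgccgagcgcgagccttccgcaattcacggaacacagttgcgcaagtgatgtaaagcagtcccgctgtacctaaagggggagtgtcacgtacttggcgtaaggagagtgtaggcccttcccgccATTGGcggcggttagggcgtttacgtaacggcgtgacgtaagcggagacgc
Hnrnpab, chr11:51420384-51420633, - strand: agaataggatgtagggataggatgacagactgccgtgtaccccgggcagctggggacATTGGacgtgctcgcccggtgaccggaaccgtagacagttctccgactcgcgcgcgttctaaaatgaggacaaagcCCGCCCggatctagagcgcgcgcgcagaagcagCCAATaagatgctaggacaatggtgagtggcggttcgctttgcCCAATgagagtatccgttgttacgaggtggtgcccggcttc
Snrpa, chr7:27981291-27981540, - strand: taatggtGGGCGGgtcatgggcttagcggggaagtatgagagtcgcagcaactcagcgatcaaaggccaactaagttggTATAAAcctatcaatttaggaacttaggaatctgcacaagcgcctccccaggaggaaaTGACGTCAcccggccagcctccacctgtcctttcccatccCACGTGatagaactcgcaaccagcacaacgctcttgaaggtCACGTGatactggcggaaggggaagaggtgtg
Snrpn, chr7:67595064-67595313, - strand: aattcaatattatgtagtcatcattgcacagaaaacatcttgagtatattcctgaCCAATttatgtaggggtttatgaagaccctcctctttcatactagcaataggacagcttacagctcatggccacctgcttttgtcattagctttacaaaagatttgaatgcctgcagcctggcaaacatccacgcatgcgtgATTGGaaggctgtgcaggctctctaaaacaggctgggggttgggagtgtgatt

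The upstream sequence of Sfrs6 held 40 CpGs and was 71.6% GC, with 2 GC boxes, while that of Snrpn held 2 CpGs and was 43.2% GC. Hnrnpab carried CCAAT boxes and a GC box. Snrpa carried a TATA box, a GC box, a cyclic AMP response element and 2 E-boxes, the E-box reading the same on both strands. Over the 65 genes, 33 (50.8%) had a CCAAT box within these 250 bases, against 35.1% of all genes. The ETS motif was in 18 (27.7%) against 10.4%, the NRF1 motif in 10 (15.4%) against 5.90%, the GC box in 38 (58.5%) against 46.2%, and the TATA box in 7 (10.8%) against 12.0%. The motifs were not spread alike over the roles: the ETS motif was in 6 of 11 snRNP and 4 of 7 SF3 promoters but in 3 of 18 hnRNP and 2 of 17 SR promoters, and the CCAAT box was in 13 of 18 hnRNP promoters and 5 of 17 SR promoters. These shares are descriptions of letters and were not tested against GC content.

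In control ESCs, p400 and Tip60 signals were high at splicing factor genes. Of the 65 genes, 28 (43.1%) lay in the top 10% of all genes for p400 upon GFP KD, and 28 (43.1%) did so for Tip60 upon GFP KD. The corresponding numbers were 12 for Hdac6 upon GFP KD and 13 for the untagged library. The median gene had 36 p400 reads (range 3 to 72) against 22 over all genes, 21 Tip60 reads (7 to 74) against 13, 17 Hdac6 reads (1 to 32) against 12, and 15 untagged reads (5 to 26) against 12. The average p400 profile rose to 0.521 ppm at 120 bp downstream of the TSS at splicing factor genes, and to 0.295 ppm at 60 bp over all genes.

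**Figure D1:**
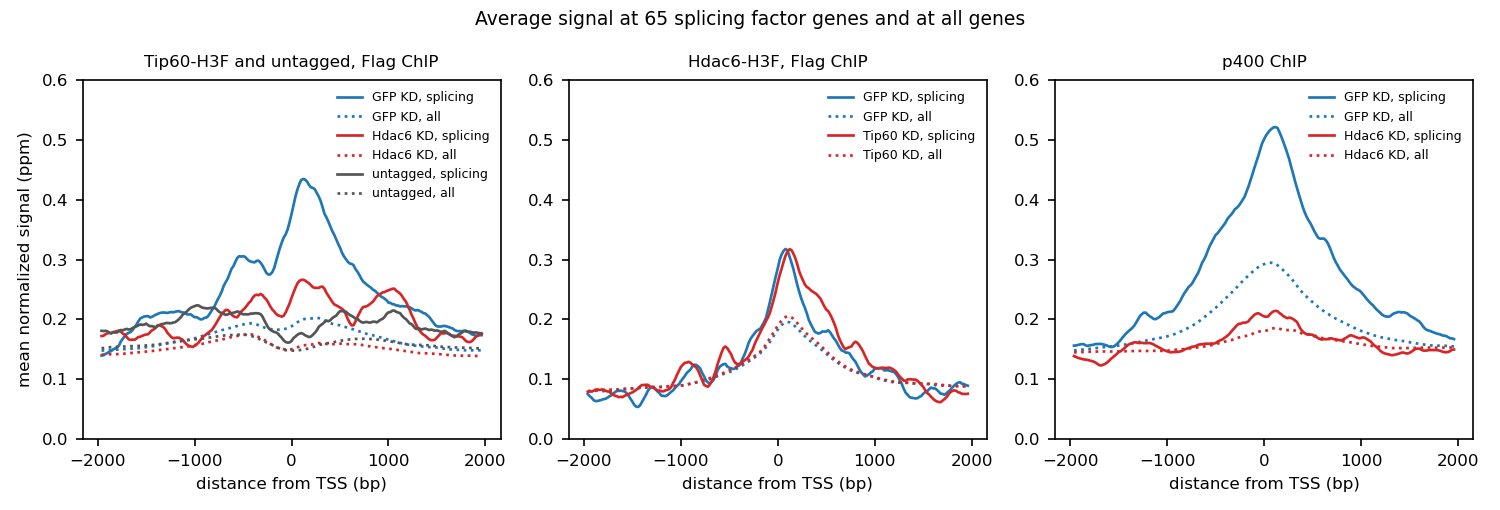
Mean normalized signal (ppm, smoothed over 100 bp) against distance from the TSS (bp) in 65 splicing factor genes (solid lines) and 17689 genes (dotted lines), 1 library per line. The p400 and Tip60 lines of the splicing genes upon GFP KD peaked at 0.521 and 0.435 ppm near 120 bp, those upon Hdac6 KD at 0.214 and 0.266 ppm, and the Hdac6 lines upon GFP KD and Tip60 KD overlapped.

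The Tip60 signal was compared with the untagged library to ask where tagged Tip60 gave more than background. It was at least 1.5-fold higher in 48 of 93 member rows tested (29.8% of all rows tested) and at least 1.5-fold lower in 7 (15.3%), and by the exact read test it was higher in 13 (1.25% of all rows) and lower in 0 (0.07%), the higher rows numbering 7 in a window of 250 bp on either side. The mean over the 95 rows was 74.0% higher (95% exact interval of the summed reads 62.9 to 86.5%), against 17.2% over all rows tested. At the most upstream rows the mean was 134.5% higher at hnRNP genes (interval 103.5 to 175.04%) and 131.2% higher at SR protein genes (97.7 to 170.5%), 68.3% at SF3 genes, 27.4% at snRNP genes (2.40 to 56.0%) and 21.3% at Prpf genes (-2.45 to 46.6%). Of the rows that passed the exact read test, 6 were SR, 6 hnRNP and 1 SF3, with 0 of 13 snRNP and 0 of 18 Prpf rows, although 1 and 2 of those had an unadjusted p under 0.05 by the same test. After correction for GC content 11 rows passed, 6 of them hnRNP, 4 SR and 1 SF3. The shares of all rows after this correction and in the 250 bp window are not given here. The differences between roles were not tested. At the most upstream rows 11 of 65 genes passed (1.65% of all genes). The gaps were little changed by that correction, a choice made after seeing the data, at 120.7%, 118.2%, 65.2%, 27.3% and 18.3% in the same order.

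**Figure D2:**
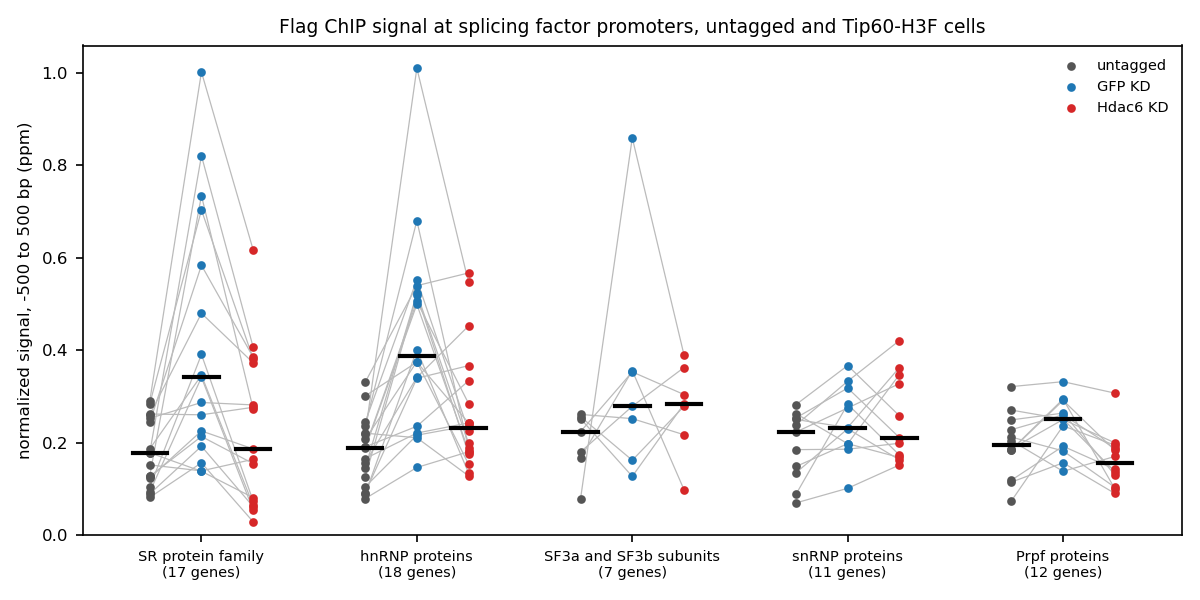
Normalized Flag ChIP signal (ppm, within 500 bp of the most upstream TSS) of each splicing factor gene in the untagged, Tip60 GFP KD and Tip60 Hdac6 KD libraries, by role, with grey lines joining the values of a gene and black bars at the medians. Upon GFP KD the highest values are Hnrnpa1 (1.01 ppm), Sfrs7 (1.00 ppm) and Sf3b3 (0.859 ppm), and the snRNP and Prpf genes reach at most 0.367 ppm.

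Upon Hdac6 KD, p400 was lower at nearly all splicing factor promoters. Of 94 rows tested, 65 were at least 1.5-fold lower (44.8% of all rows tested) and 6 at least 1.5-fold higher (8.27%). By the exact read test 40 were lower (12.3% of all rows) and 0 higher (0.272%). The lower rows numbered 23 in a window of 250 bp on either side and 25 with equal totals of signal. The shares of all rows under those settings are not given here. The mean changed by -52.1% (interval -54.7 to -49.2%), against -31.3% over all rows tested, and the median log2 change was -1.04 against -0.49. At the most upstream rows, 62 of 64 genes tested had less p400 (77% of all genes), 51 at least 1.5-fold (47.8%), 33 passed the exact read test (14.1%), and no gene was 1.5-fold higher (7.29%). Among genes with over 63.7% GC, 16 of 18 splicing genes were at least 1.5-fold lower, against 67.8% of all such genes. In this class 13 passed the exact read test, against 21.4%. With 58.3 to 63.6%, 53.7 to 58.2%, 46.9 to 53.6% and 25.9 to 46.8% GC, 10 of 17, 6 of 21, 4 of 6 and 0 of 2 passed. The shares of all such genes were 22.2%, 16.8%, 8.26% and 0.760% in the same order.

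All 18 hnRNP genes were at least 1.5-fold lower at their most upstream row and 16 passed the exact read test, and their mean changed by -64.1% (interval -68.3 to -59.5%). The mean changed by -59.6% (-64.9 to -53.4%) at SR protein genes, -49.9% (-59.4 to -39.3%) at SF3 genes, -45.9% (-54.5 to -35.8%) at snRNP genes and -38.0% (-47.0 to -26.8%) at Prpf genes. The number that passed the exact read test was 9 of 17 SR, 2 of 7 SF3, 4 of 10 snRNP and 2 of 12 Prpf genes. Over all genes tested at these rows, 14.1% passed and the mean changed by -33.4%, a value inside the Prpf interval. The intervals of the hnRNP and Prpf means do not overlap, but they cover counting error only. Median p400 was 0.566 ppm at hnRNP and 0.366 ppm at Prpf genes upon GFP KD, and 0.197 and 0.209 ppm upon Hdac6 KD. The differences between roles were themselves not tested.

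**Figure D3:**
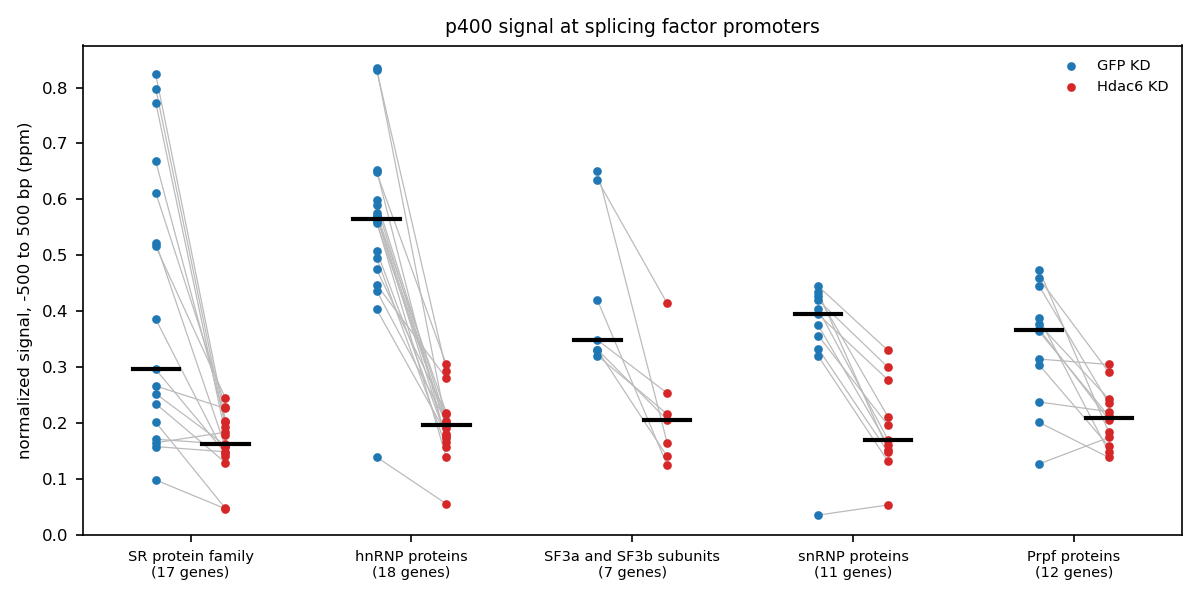
Normalized p400 signal (ppm, within 500 bp of the most upstream TSS) of each splicing factor gene upon GFP KD and Hdac6 KD, by role, with grey lines joining the values of a gene and black bars at the medians. The median of the 18 hnRNP genes was 0.566 ppm in the control and 0.197 ppm with Hdac6 knocked down, and the medians of the other roles upon Hdac6 KD lay between 0.162 and 0.209 ppm.

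Tip60 was also lower at many splicing factor promoters upon Hdac6 KD. Of 94 rows tested, 42 were at least 1.5-fold lower (34.6% of all rows tested) and 8 at least 1.5-fold higher (15.2%). By the exact read test 2 rows were lower (0.394% of all rows), those of Hnrnpab and Sfrs13b, and 0 higher (0.0508%). At the most upstream rows, adjusted over those rows alone, 5 of 65 genes were lower by that test (0.606% of all genes). These were 4 SR genes (Sfrs4, Sfrs6, Sfrs13b and Sfrs15) and 1 hnRNP gene (Hnrnpab). The row of Sfrs4 lies in a coding exon and may not mark the promoter. The log2 change of p400 was -2.11 at Sfrs6 and -1.39 at Hnrnpab. It was only -0.08 at Sfrs13b, -0.24 at Sfrs15 and 0.16 at Sfrs4. The mean Tip60 signal of the 95 rows changed by -29.2% (interval -33.6 to -24.1%), against -15.1% over all rows tested. At the most upstream rows the mean changed by -44.9% (-52.8 to -35.8%) at SR protein genes, -37.1% (-45.2 to -27.5%) at hnRNP genes and -31.7% (-45.1 to -13.5%) at Prpf genes. The intervals of the SF3 genes (-19.0%, -36.4 to 2.01%) and the snRNP genes (2.19%, -16.8 to 25.8%) included 0. Over all genes tested at these rows the mean changed by -16.6%, a value inside the Prpf, SF3 and snRNP intervals. The 2 Tip60 libraries also differed in how their background followed GC content. After correction for it the mean of the 95 rows changed by -12.3% and 0 rows passed the exact read test. The corrected change over all rows is not given here, so -12.3% has no all-row value beside it. After that correction the changes by role were -29.4% (SR), -17.5% (hnRNP), -15.7% (Prpf), 0.360% (SF3) and 20.1% (snRNP).

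For p400, the same correction for GC content gave a change of the member mean of -48.8% and 39 rows past the exact read test. The values of all rows with that correction are not given here. Across the 65 most upstream rows, 44 genes had less of both Tip60 and p400 upon Hdac6 KD and 18 had less p400 but more Tip60. The shares of all genes in these joint classes are not given here. Taken singly, p400 was lower in 77% of all genes tested and Tip60 in 63.5%. Whether the joint counts differ from those of all genes was not tested. Across these 65 genes, which are not independent replicates, the log2 changes of Tip60 and p400 had a Pearson r of 0.03 and a Spearman rho of 0.09. The levels upon GFP KD had r = 0.76 and rho = 0.73, and p400 with untagged signal r = 0.33 and rho = 0.31, the points of each sharing base composition (p400 with the CpG ratio, r = 0.69).

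The genes that carry these changes are described by role, first the SR protein family. Sfrs1, the founding SR protein (window chr11:87860673-87861673), had 71 p400 reads in the control (GFP KD) and 22 with Hdac6 knocked down, 60 and 27 Tip60 reads likewise, 26 and 24 Hdac6 reads in the control and with Tip60 knocked down, and 14 untagged reads. Its p400 signal was thus 4.03-fold lower upon Hdac6 KD (log2 change -2.01, 95% exact interval -2.76 to -1.29, exact read test adjusted p = 4.68e-07), and its Tip60 signal, 4.61-fold above the untagged library (adjusted p = 7.56e-06 by the exact test), was 2.02-fold lower (adjusted p = 0.146). The p400 libraries were far apart, and the Tip60 reads upon Hdac6 KD lay between those upon GFP KD and the untagged reads.

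Sfrs6 (chr2:162756781-162757781), whose upstream sequence is printed above, had 67 and 19 p400 reads, 53 and 18 Tip60 reads, 24 and 19 Hdac6 reads, and 10 untagged reads. Its p400 was 4.31-fold lower (log2 change -2.11, interval -2.95 to -1.38, exact adjusted p = 3.19e-07), and its Tip60 2.69-fold lower (interval of the log2 change -2.26 to -0.61, exact adjusted p = 0.0522), just outside the threshold. Sfrs7, another classical SR protein, had 67 and 24 p400 reads at its first row, 77 and 40 Tip60 reads, 26 and 26 Hdac6 reads and 17 untagged reads. That Tip60 level was the highest of any member row, 4.92-fold above the untagged library (exact adjusted p = 3.49e-08), and upon Hdac6 KD it was 1.75-fold lower (exact adjusted p = 0.176). The other Sfrs7 row lies 428 bp upstream and shares most of these reads.

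Sfrs2 (SC35) had 58 and 22 p400 reads, 51 and 25 Tip60 reads, 22 and 27 Hdac6 reads and 22 untagged reads. Sfrs3 (SRp20), the smallest classical SR protein, had 53 and 25 p400 reads, 42 and 25 Tip60 reads, 23 and 16 Hdac6 reads and 19 untagged reads. Their p400 was 3.30-fold and 2.67-fold lower (exact adjusted p = 0.000101 and 0.00211). Sfrs1, Sfrs2, Sfrs3, Sfrs6 and Sfrs7 thus had at least 53 p400 reads upon GFP KD. The other 12 SR family genes had 8 to 45, and the rows of Sfrs4, Sfrs12 and Sfrs13a among them lie in a coding exon. Sfrs13b (SRrp35) differed from Sfrs2 and Sfrs3, with 15 and 17 p400 reads but 28 and 5 Tip60 reads, 8 untagged reads and 11 and 8 Hdac6 reads. Its Tip60 was 5.30-fold lower (log2 change -2.41, interval -4.06 to -0.94, exact adjusted p = 0.04999), and it did not pass the test after correction for GC content (exact adjusted p = 0.158). The most upstream row of Sfrs15 was alike, with 25 and 4 Tip60 reads (exact adjusted p = 0.0587) beside 23 and 24 p400 reads, 13 and 13 Hdac6 reads and 7 untagged reads.

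Among hnRNP genes, Hnrnpa1, whose protein often opposes SR proteins at splice sites (chr15:103070363-103071363), had 72 and 31 p400 reads, 74 and 36 Tip60 reads, 13 and 17 Hdac6 reads and 17 untagged reads. Its p400 was 2.83-fold lower (log2 change -1.50, interval -2.18 to -0.90, exact adjusted p = 5.75e-05), and its Tip60, 4.62-fold above untagged (exact adjusted p = 1.46e-07), was 1.85-fold lower (exact adjusted p = 0.139). Hnrnpa2b1, at its most upstream row (chr6:51419393-51420393), also had 72 p400 reads and fell to 21, a 4.24-fold change (exact adjusted p = 1.3e-07), yet its Tip60 reads were 39 and 37 beside 26 untagged reads. Its Hdac6 reads were 30 and 17. These genes had equal p400 upon GFP KD and unequal Tip60.

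Hnrnpab (chr11:51419883-51420883) had 50 and 12 Tip60 reads, 50 and 23 p400 reads, 27 and 22 Hdac6 reads and 19 untagged reads. Its Tip60 was 3.63-fold lower upon Hdac6 KD (log2 change -1.86, interval -2.95 to -0.97, exact adjusted p = 0.0106; 0.172 after correction for GC content) and its p400 2.63-fold lower (exact adjusted p = 0.00241). Hnrnpd (AUF1), which binds AU-rich mRNAs, had 48 and 21 p400 reads, 38 and 11 Tip60 reads, 17 and 24 Hdac6 reads and 10 untagged reads, with p400 2.83-fold lower (exact adjusted p = 0.00197) and Tip60 2.97-fold lower (exact adjusted p = 0.0762). The GC content of their windows was 66.3% and 73.8%.

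Hnrnpu, a nuclear matrix protein, had 48 and 25 p400 reads, 28 and 20 Tip60 reads, 31 and 17 Hdac6 reads and 12 untagged reads at its first row. Hnrnpc, which binds uridine-rich tracts, had 56 and 33 p400 reads, 27 and 16 Tip60 reads, 15 and 13 Hdac6 reads and 24 untagged reads. Their p400 was 2.43-fold and 2.13-fold lower (exact adjusted p = 0.00881 and 0.013), the first Hnrnpu row passing no longer after correction for GC content (exact adjusted p = 0.116). The most upstream Hnrnpu row had 49 and 21 p400 reads (exact adjusted p = 0.00142, and 0.0306 after GC correction), 16 and 15 Tip60 reads, 22 and 12 Hdac6 reads and 8 untagged reads. Tip60 at Hnrnpc was 1.24-fold the untagged level. Hnrnph2 had the least p400 upon GFP KD of the hnRNP genes at their most upstream rows, with 12 and 6 reads.

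Of the SF3 genes, Sf3b3, a large scaffold subunit of SF3b (chr8:113370203-113371203), stood apart. It had 63 and 25 Tip60 reads, 6 untagged reads, 56 and 18 p400 reads and 15 and 24 Hdac6 reads. Its Tip60 was 10.9-fold above the untagged library (log2 ratio 3.45, interval 2.31 to 5.01, exact adjusted p = 1.57e-10), the largest ratio of any member row, and it was 2.20-fold lower upon Hdac6 KD (exact adjusted p = 0.0718). Its p400 was 3.94-fold lower (exact adjusted p = 2.13e-05). Its window also holds the start of Cog4 on the opposite strand.

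The other SF3 genes had less Tip60. Sf3b1, which holds the branch point, had 20 and 24 Tip60 reads, 29 and 22 p400 reads, 22 and 17 Hdac6 reads and 14 untagged reads. Sf3a3 had 12 and 18 Tip60 reads, 29 and 15 p400 reads, 17 and 15 Hdac6 reads and 20 untagged reads. Sf3b4 had 9 and 19 Tip60 reads, 30 and 27 p400 reads, 16 and 14 Hdac6 reads and 20 untagged reads, and at 0.504 its Tip60 ratio to untagged was among the lowest of the members. Sf3b2 had 18 and 14 Tip60 reads, 28 and 23 p400 reads, 8 and 10 Hdac6 reads and 21 untagged reads at its most upstream row. The p400 of Sf3b1, Sf3a3 and Sf3b4 did not pass the exact read test (adjusted p = 0.295, 0.0551 and 0.542), except that Sf3a3 passed after correction for GC content (0.0306).

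The snRNP genes had a median of 34 p400 reads upon GFP KD (range 3 to 38, the lowest being Snrpn). Their mean Tip60 was 27.4% above untagged, against 21.5% over all genes tested. Snrpb, the SmB protein, had 37 and 16 p400 reads, 14 and 13 Tip60 reads, 18 and 8 Hdac6 reads and 15 untagged reads. Its p400 was 2.84-fold lower (log2 change -1.51, interval -2.46 to -0.64, exact adjusted p = 0.00788) while its Tip60 equalled the untagged level, at a ratio of 1.00. Snrpd2, an Sm core protein, had 28 and 14 p400 reads (exact adjusted p = 0.0517, and 0.0301 after GC correction), 14 and 11 Tip60 reads, 8 and 12 Hdac6 reads and 21 untagged reads. Snrpd1, of the same ring, had 31 and 21 p400 reads, 24 and 27 Tip60 reads, 11 and 8 Hdac6 reads and 19 untagged reads. Snrpe had 34 and 30 p400 reads, 17 and 11 Tip60 reads, 20 and 22 Hdac6 reads and 11 untagged reads.

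The U2 snRNP protein Snrpa1 had 32 and 17 p400 reads (2.32-fold lower, exact adjusted p = 0.047) and 14 and 23 Tip60 reads, with 20 and 18 Hdac6 reads and 12 untagged reads. The U1 snRNP protein Snrpa differed from it: its most upstream row had 38 and 35 p400 reads (1.35-fold lower, exact adjusted p = 0.501), 27 and 17 Tip60 reads, 15 and 15 Hdac6 reads and 22 untagged reads, and its first row had 24 and 33 p400 reads. Snrpn, an imprinted gene for a neuronal Sm protein, had 3 rows spread over 352569 bp, all with a CpG ratio between 0.126 and 0.157. They had 3 to 4 p400 reads upon GFP KD, 5 to 7 Tip60 reads, 1 to 5 Hdac6 reads and 3 to 5 untagged reads, the lowest p400 signal of the members. Of these rows, only the one 309958 bp downstream of the most upstream row matched an annotated start.

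Among Prpf genes, Prpf8, the core of the catalytic centre, had 26 and 17 p400 reads, 18 and 13 Tip60 reads, 12 and 9 Hdac6 reads and 15 untagged reads. Prpf3, of the U4/U6 particle, had 41 and 20 p400 reads (2.55-fold lower, exact adjusted p = 0.0111), 22 and 21 Tip60 reads, 20 and 17 Hdac6 reads and 25 untagged reads. Prpf19, the ubiquitin ligase of the complex that bears its name, had 31 and 23 p400 reads, 10 and 11 Tip60 reads, 16 and 6 Hdac6 reads and 16 untagged reads. Of these 3 genes, Prpf3 passed the test in p400. Prpf18 had the least p400 upon GFP KD of the Prpf genes at their most upstream rows, with 11 reads, and had 19 upon Hdac6 KD, beside 14 and 9 Tip60 reads, 16 and 6 Hdac6 reads and 9 untagged reads.

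The signal of these genes depended on which TSS was taken. Of the 65 genes, 22 had more than 1 row, and 20 rows in 14 genes lay over 1 kb downstream of the gene's most upstream row. Of these 20, the GENCODE annotation of the same genome places 10 in a coding exon, 7 in an intron and 3 in another exon. Of the 65 most upstream rows, 56 lie in a noncoding exon, 5 outside a gene and 4 in a coding exon (Hnrnpl, Sfrs4, Sfrs12 and Sfrs13a). For these 4 genes the row may not mark the promoter. The 20 internal rows had a median GC content of 41.0% and a median CpG ratio of 0.282. Their median was 12.5 p400 reads upon GFP KD (range 4 to 67) against 33 at the most upstream rows of the same 14 genes. It was 11 against 20 Tip60 reads and 5.5 against 18.5 Hdac6 reads, but 13 against 15.5 untagged reads. In p400, 16 of the 20 had less signal than their upstream row, in Tip60 18, in Hdac6 17 and in the untagged library 14.

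**Figure D4:**
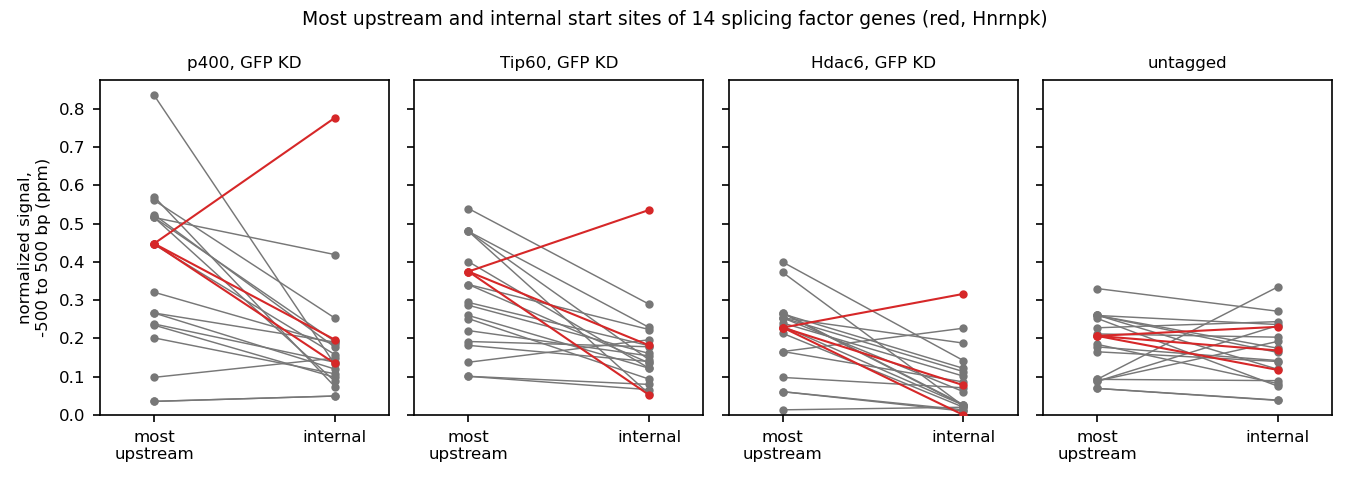
Normalized signal (ppm, within 500 bp of the TSS) at the most upstream row and at each row over 1 kb downstream of it in 14 splicing factor genes, in 4 libraries, with Hnrnpk in red. Most lines fall from upstream to internal rows in the p400, Tip60 and Hdac6 libraries, and the Hnrnpk row 1202 bp downstream rises, to 0.776 ppm in p400.

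Hnrnpk, a poly(C)-binding hnRNP, shows this within 1 gene. Its 5 rows, taken from the most upstream, had 39, 64, 67, 12 and 17 p400 reads in the control and 30, 18, 15, 16 and 20 with Hdac6 knocked down. Tip60 reads upon GFP KD were 27, 38, 39, 13 and 4, those upon Hdac6 KD 10, 18, 26, 15 and 19, Hdac6 reads upon GFP KD 18, 24, 25, 0 and 6 and upon Tip60 KD 21, 27, 21, 1 and 4, and untagged reads 16, 16, 13, 18 and 9. Upon GFP KD the p400 and Tip60 signals were highest at the rows 831 and 1202 bp downstream of the most upstream one, where GC content was 70.9% and 71.9%. The row at 1202 bp (chr13:58503002-58504002) had the deepest loss of p400 of any member, 5.52-fold (log2 change -2.46, interval -3.38 to -1.65, exact adjusted p = 1.07e-08), with Tip60 1.34-fold lower (exact adjusted p = 0.798). Some other low rows were internal too, although those of Prpf18, Sf3b4 and Hnrnph2 were not: the first rows of Sfrs2ip (8 p400 reads upon GFP KD) and Sfrs11 (4 Tip60 and 14 untagged reads) lie 39997 and 13217 bp downstream of the most upstream ones, which had 20 p400 reads (Sfrs2ip) and 35 Tip60 and 21 untagged reads (Sfrs11).

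For Hdac6, the comparison with the untagged library asks whether tagged Hdac6 was above background, and the 2 libraries could not be compared on equal terms. Scaled to library size, 62 of 91 rows tested were at least 1.5-fold higher (59.3% of all rows tested) and 10 at least 1.5-fold lower (10.4%), 30 were higher by the exact read test (22.8% of all rows; 10 with equal totals of signal) and 1 lower (0.352%), an internal Hnrnpk row with 0 reads against 18. The mean of the members was 98.1% higher (interval 84.1 to 114.01%), against 85.7% over all rows tested. The member share is thus near that of all rows. The Hdac6 libraries followed GC content: their flank signal was 0.164 times the untagged one in windows of 25 to 27.5% GC and 3.01 times in windows of 62.5 to 65% GC. With a correction for GC content, chosen after the data were seen, the member mean changed from untagged by -9.36%, 16 rows were 1.5-fold higher, and 0 passed the exact read test, so the direction of this comparison rests on the treatment of GC. Prpf6, Sfrs9 and Hnrnph3 had 23, 27 and 23 Hdac6 reads against 9, 10 and 7 untagged reads, before any correction; they are named after their values were seen.

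**Figure D5:**
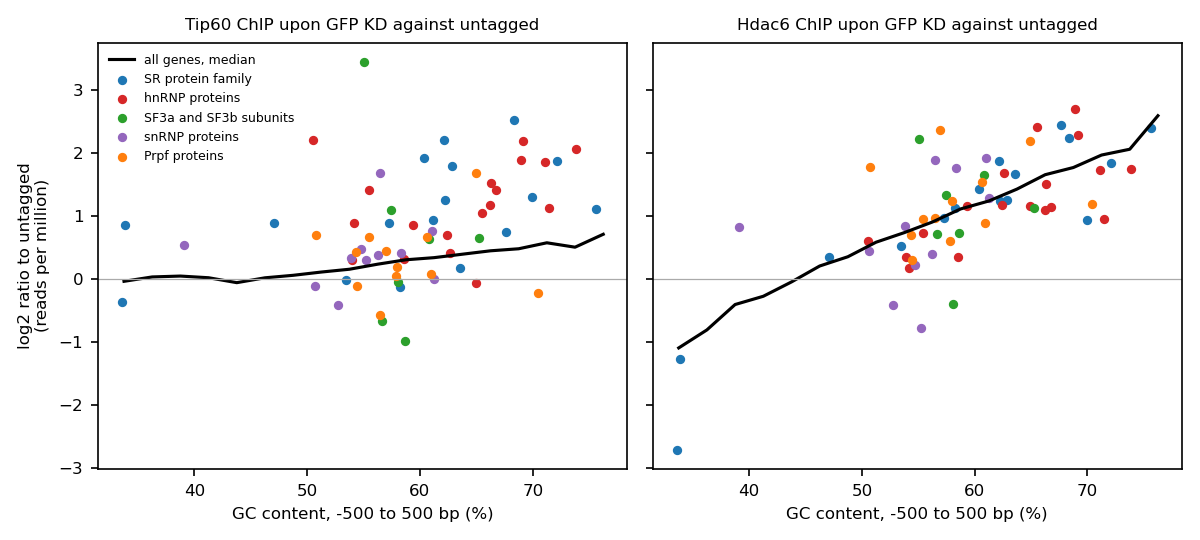
Log2 ratio to the untagged library (scaled to library size) against GC content within 500 bp of the TSS (%), for Tip60 (left) and Hdac6 (right) upon GFP KD, with splicing factor genes as points by role and the median of all genes as a black line. In the Hdac6 panel the points follow the rising line, and in the Tip60 panel most SR and hnRNP genes lie above it and most snRNP and Prpf genes lie near it.

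Upon Tip60 KD, no change in Hdac6 at splicing factor genes was detectable at this depth. Of 81 rows tested, 11 were at least 1.5-fold lower (16.9% of all rows tested) and 12 at least 1.5-fold higher (18%). By the exact read test 0 were called in either direction (0% lower and 0.00353% higher over all rows), and 2 rows had an unadjusted p under 0.05. The mean differed by 5.59% (interval -2.28 to 14.4%), against 2.51% over all rows tested. The 2 rows with the smallest p were those of Snrpd3, with 5 Hdac6 reads upon GFP KD and 14 upon Tip60 KD, and Sf3b3, with 15 and 24, and neither passed adjustment (exact adjusted p = 1). Hnrnpd had 17 and 24 and Prpf40b 19 and 7. By role, the mean changed by -16.3% at Prpf genes (interval -32.9 to 4.69%), and by 9.04 to 18.5% at the other roles with every interval including 0.

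The position of the signal was compared between 100 bp upstream and 300 bp downstream of the TSS (downstream window) and between 600 and 200 bp upstream (upstream window). At the most upstream rows of the 65 genes the downstream window had 35.7% more Tip60 upon GFP KD than the upstream one (interval 21.7 to 51.5%), 36.8% more p400 (25.1 to 49.9%) and 92.1% more Hdac6 (66.6 to 121.5%), but 16.0% less untagged signal (interval -27.1 to -3.14%). The corresponding values over all genes were 3.19%, 21.6%, 49.9% and -10.9%. Downstream signal was the higher in 39 of 65 genes (60%) for Tip60, against 50.6% of all genes, and in 46 (70.8%) for p400, against 62.7%. It was the higher in 48 (73.8%) for Hdac6, against 67.7%, and in 25 (38.5%) for the untagged library, against 42.8%. Mean GC content was 64.2% in the downstream and 51.6% in the upstream window, and its part in the Hdac6 difference was not tested.

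Other genes of the pathway were taken from 2 lists of symbols. Cwc27 among them starts on the opposite strand within 1 kb of the member Sfrs12ip1, and their overlapping windows share reads. Of 71 other spliceosome genes (Lsm, Snrnp, Ddx, Gemin and others), p400 upon Hdac6 KD was at least 1.5-fold lower in 53 and higher in 1, and 33 were lower by the exact read test, at their most upstream rows. Of 48 splicing regulators, 39 were at least 1.5-fold lower, 0 higher, and 26 lower by the exact read test. These shares stand beside 47.8% and 14.1% of all genes, and 51 of 64 and 33 of 64 in the members, and the difference was not tested. Tip60 upon Hdac6 KD was at least 1.5-fold lower in 19 of 71 and 22 of 47 tested, against 32 of 65 members and 34.8% of all genes, and its mean changed by -11.1% and -30.4%, against -32.2% in the members and -16.6% over all genes. Tip60 was above untagged by the exact read test in 4 of 71 and 8 of 48, against 11 of 65 members and 1.65% of all genes. Examples, named after their values were seen, are Ptbp1, a repressor of exon inclusion, with 77 and 26 p400 reads (log2 change -1.90, exact adjusted p = 4.70e-07), and Fubp1, with 61 and 12 p400 reads and 33 Tip60 reads against 3 untagged reads.

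Several of these comparisons share a library: the Tip60 GFP KD library is the control of the Hdac6 KD comparison and the numerator against untagged cells, the Hdac6 GFP KD library likewise, and the untagged library serves both. The 2 p400 libraries are in no other comparison.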

How the data were processed

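The 7 samples and their groups were taken from the labels. Per the labels and the study's methods, the authors called bases with CASAVA 1.8.2, collapsed identical reads while keeping their number, aligned with bowtie to mm9 allowing at most 1 mismatch and 1 random placement of repeats, removed simple repeats, extended reads and binned coverage at 20-bp steps; the bowtie version, the TSS list and the normalization formula are not given in the sources used here. The deposited signal is coverage in ppm at 201 positions from 2000 bp upstream to 2000 bp downstream of each TSS. All values were whole multiples of 1 step per file (100%, tolerance 0.02 steps), so reads per row were the summed signal divided by step and read span. An isolated read spanned about 299 bp in all files but those of Hdac6 ChIP, where it was 148 bp, against a stated extension of 150 bp, so ppm levels are not set across them. The p400 files hold the 22704 rows with a RefSeq identifier.

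Promoter values are means within 500 bp of the TSS. TSS positions matched annotated starts 1 base after the file's coordinate. Members (95 rows; all 95 have p400 values) were compared by folds and exact read tests over all rows, in Python 3 with numpy, pandas and scipy. The test was checked on simulated reads that were independent of each other. Genes were named by rule: 24 fixed symbols, of which 22 are in the files, the 4 smallest p-values per knockdown, and the 3 highest and lowest by p400 and by Tip60 to untagged ratio; exceptions are stated. Members, lists and tests were chosen with earlier results of these data known. Intervals cover counting error only, since each condition has 1 library. Duplicates were kept, so reads may not be independent, and the intervals and p-values may be too narrow. Alternatives were other windows, folds, scalings, row choices, flank subtraction and GC correction. The GC correction was the ratio of flank signals by GC class up to 65% GC, and promoters above that took the value of the highest class.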

Additional observations from a re-analysis of the deposited data

How the results depend on the processing

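Of the recomputed values, 51 moved and 1 reversed, and the others stayed within the counting interval or within 1.5 times the main count; the causes were not tested. The reversed one is the Hdac6 mean against untagged, -9.36% with correction for GC content, which also left 16 rows 1.5-fold higher and 0 by the exact read test. No paired analysis was possible because each condition has 1 library. Except at the most upstream rows, shares of all rows under these settings are not given here. For p400 upon Hdac6 KD the mean changed by -46.9% in the wide window (1000 bp on either side), -42.0% with equal totals, -85.0% with flank signal subtracted, -48.8% with GC correction and -55.1% at the most upstream rows, and the exact read test called 23 rows in the narrow window (250 bp) and 25 with equal totals. For Tip60 upon Hdac6 KD the mean changed by -21.6% with equal totals, -49.0% with flank subtraction and -12.3% with GC correction; a fold of 2 gave 23 lower rows, and the exact read test called 0 in the narrow window, 1 with equal totals, 1 with no minimum of reads, 0 with GC correction and 5 at the most upstream rows. For Hdac6 upon Tip60 KD, 1.5-fold lower rows numbered 5 (wide window), 22 (flank), 5 (fold of 2) and 7 (most upstream), and higher ones 23 (flank), 3 (fold of 2) and 21 (no minimum). Tip60 against untagged was 94.0% (narrow), 47.4% (wide) and 409% (flank) higher, with 7 rows by the exact read test in the narrow window. Hdac6 against untagged was 153.1% (narrow), 55.3% (wide), 43.8% (equal totals), 456% (flank) and 121.5% (most upstream) higher, with 10 rows by the exact read test at equal totals.

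Mean levels in the narrow window were 0.172 (untagged), 0.216 and 0.217 (Hdac6 ChIP, control and Tip60 KD) and 0.425 and 0.195 ppm (p400 ChIP, control and Hdac6 KD); with the first row per gene 0.192 (Hdac6 GFP KD) and 0.402 ppm (p400 GFP KD); at the most upstream rows 0.348 (Tip60 GFP KD), 0.207 and 0.218 (Hdac6) and 0.429 ppm (p400 GFP KD). The downstream excess was 35.7% (Tip60) and 92.1% (Hdac6) at the most upstream rows, and 24.1% (Hdac6), 8.54% (p400) and -7.63% (untagged) with windows of 1000 bp. The choices of the most upstream row and of GC correction against untagged were made after seeing the data. Of the 42 rows at least 1.5-fold lower in Tip60 upon Hdac6 KD, 2 passed the exact read test. Leaving out a replicate was not possible with 1 library per condition.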
